A study of Homo sapiens with 14 samples.

Results

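The genes described here encode the core protein subunits of the spliceosome. They were taken by name: every protein-coding gene of the deposited tables whose symbol begins with SNRP, SF3A, SF3B, PRPF or U2AF. The rule found 37 genes among the 20345 protein-coding genes and the 57820 genes of all kinds in the tables. The rule itself uses no measured value, but it was set with earlier results of these data known. By the particle in which their products work, they fall into 8 genes of the Sm core, 5 of the U1 particle and its associates, 11 of the U2 particle, 3 of the U2AF factor, 9 of the U4/U6.U5 tri-snRNP and the B complex, and 1 of the PRP19 complex (PRPF19).

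The spliceosome removes introns from pre-mRNA and is built anew on each intron from small nuclear RNAs and their proteins. Sm proteins form a ring on the small nuclear RNAs, U1 recognises the 5′ splice site, U2AF and then U2 bind around the branch point and the 3′ splice site, and the tri-snRNP with PRPF8 at its heart brings in the catalytic centre. Dividing cells need these proteins at all times, and several of the genes, among them SF3B1 and U2AF1, are recurrently mutated in blood cancers, while PRPF8 and PRPF31 are known from inherited retinal degeneration.

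All libraries came from polyadenylated RNA of HEK293T cells, an immortalised human embryonic kidney line, with 2 replicates per group. In the conversion experiment, 4 groups were sequenced: untreated (neither s4U nor acrylonitrile), s4U (24 h in the medium, no acrylonitrile), acrylonitrile (no s4U) and s4U+acrylonitrile. s4U is 4-thiouridine, which cells build into new RNA, and acrylonitrile, applied to the isolated RNA fragments, makes s4U read as C in sequencing, so that a fragment with a mismatch is counted as marked. The protocol gives 50 µM s4U for these libraries, whereas the treatment labels of the s4U+acrylonitrile libraries give 500 µM. In the PDP experiment, PDP, an analogue of the G-quadruplex ligand pyridostatin, was given at 0, 4 or 8 µM (groups PDP0, PDP4 and PDP8) for 20 min before 1 h of 500 µM s4U, and all of these RNAs were treated with acrylonitrile. Whether the replicates were separate cultures is not stated, and p-values therefore reflect only how far these libraries differed, which may be technical. Whether a change was alike in all cells or came from some of them cannot be told in such bulk libraries. Levels are shares of a library, so a change in a gene and a change in the rest of the RNA cannot be told apart.

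Libraries held 6074118 to 17228999 fragments in the conversion experiment and 9770956 to 22363992 in the PDP experiment, of which 15174 to 116684 and 44917 to 122326 lay in the 37 genes. Replicates of the untreated and the PDP0 group differed by little more than counting noise, with a chi-square per degree of freedom of 1.06 and 1.08 over all genes. The s4U pair stood apart from each other, at 59.8. In the acrylonitrile-treated libraries of the conversion experiment, 68.4% to 70.9% of fragments lay in genes, against 90.6% in the untreated pair. The kidney and HEK293 line markers PAX2, LHX1 and NEFM were detected in every library, and the blood cell markers PTPRC, CD3E and HBB had at most 1 fragment. The fibroblast collagen gene COL1A1 was detected throughout, at 50.6 to 56.6 FPM (fragments-per-million of the library) in the PDP libraries and with 333 to 1013 fragments in the conversion libraries, and the endothelial gene VWF had at most 0.284 FPM and 13 fragments. The liver gene ALB, at most 0.0946 FPM in the PDP libraries, had 70 to 520 fragments in the conversion libraries. The part of these genes' signal in the results below was not tested.

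Nearly all of these genes were detected at readily measured levels. Without PDP, the median over 36 of them was 15.2 FPKM (fragments per kilobase of transcript, scaled to the size of the library), against 6.16 FPKM over the 12647 protein-coding genes that had a mean of 1 FPM or more. SNRPB, which encodes the Sm proteins B and B′ of every Sm ring, had the highest level per length, at 406 and 395 FPKM in the PDP0 replicates. It was followed by U2AF2, the large U2AF subunit that binds the polypyrimidine tract (335 and 331 FPKM), SNRPD2 (241 and 252 FPKM) and SF3A2 (236 and 238 FPKM), and these 4 did not overlap with each other. SF3B1, the largest subunit of the branch point complex SF3B, had 11.7 and 12.4 FPKM, PRPF8 had 75.1 and 76.2 FPKM, and PRPF39, a U1-associated protein, was the lowest of the 36 at 1.22 and 1.05 FPKM. The U2AF genes had the highest group median (120 FPKM) and the U1 genes the lowest (9.05 FPKM).

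SNRPN was the exception. This imprinted gene on chr15:25068794-25223870 (GRCh37, plus strand) encodes a close relative of SNRPB and overlaps SNURF and SNHG14 on the same strand. It had 0 fragments in 8 of the 14 libraries and 12 fragments in all, at most 5 in 1 library. A count of 0 allows up to 3 fragments, or 0.163 to 0.386 FPM in these libraries. SNURF and SNHG14 were also low, with 1 and 77 fragments over all libraries, and the sources used here do not say how fragments of overlapping genes were counted. SNRPN passed no filter on low values, and the counts below are over the other 36 genes. Pseudogenes named after a member exist in the tables for 8 members (35 pseudogenes, most of them copies of SNRPG and SNRPE). They held at most 2.35% of the fragments of a gene and its copies, for SNRPE in the PDP experiment. Only uniquely mapped pairs were used, so this share does not show how many fragments fitted both a gene and a copy.

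PDP binds G-quadruplexes, 4-stranded structures of guanine-rich nucleic acid, so the RefSeq promoters (GRCh38.p14, 250 bases before to 50 bases after the start site) were searched on both strands for 4 runs of at least 3 G separated by 1 to 7 bases of any kind. An entry matched 32 of the 37 genes, PRPF4B and SF3B14 by their current symbols PRP4K and SF3B6, and PRPF3, PRPF39, SF3B3 and SNRPD1 were among the genes without a match. The pattern was present in 4 of the 32 (12.5%): PRPF40B, SNRPD3, U2AF1 and U2AF2. It was present in 30.4% of the 22199 promoters of protein-coding genes and in 25% of all 35116 promoters of this length. The matches are printed because the response of these 4 genes to PDP is described below. Capitals mark the G runs, and each is written 5′ to 3′ on the strand that carries it.
U2AF2, chr19:55654900-55654964 (plus strand, 135 to 71 bases before the start site, holding both matches): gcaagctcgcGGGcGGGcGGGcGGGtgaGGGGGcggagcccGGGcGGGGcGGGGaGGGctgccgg
U2AF1, chr21:43107733-43107749 (minus strand, the strand of the gene, 179 to 163 bases before the start site): GGGccGGGcGGGGaGGG
PRPF40B, chr12:49623400-49623416 (plus strand, the strand of the gene, 161 to 145 bases before the start site): GGGGGGGcGGGGccGGG
PRPF40B, chr12:49623492-49623514 (minus strand, opposite to the gene, 69 to 47 bases before the start site): GGGaGGGcGGGGccggcGGGGGG
SNRPD3, chr22:24555477-24555502 (minus strand, opposite to the gene, 173 to 148 bases before the start site): GGGGcctcGGGGatgcactGGGcGGG
The U2AF2 stretch carries several G runs close together on the strand of the gene, and in PRPF40B runs of G stand on both strands. A match describes letters only and does not show that a structure forms.

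Whether labeling itself changed these transcripts was asked first, by comparing total fragments of s4U with untreated cells. Spliceosome subunit transcripts were mostly higher after 24 h of s4U. Of the 36 genes, 31 rose, 1 fell and 4 did not pass (edgeR quasi-likelihood test, adjusted p under 0.05 over 18914 genes), where 35.8% of all genes rose and 34.7% fell. The median log2 fold change was 1.32 over the 36 genes and 0.02 over all genes. All 7 Sm genes tested rose (median 2.03), as did 10 of 11 U2 genes (median 1.21), all 3 U2AF genes (median 1.45), 6 of 9 tri-snRNP and B complex genes (median 1.24) and 4 of 5 U1 genes (median 0.57).

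The Sm genes led. SNRPF, an Sm ring protein, had 33.5 and 30.9 CPM (counts-per-million, scaled by edgeR's trimmed mean method, TMM) in untreated cells and 294 and 141 CPM with s4U, a log2 fold change of 2.76 (SE 0.29, adjusted p = 1.7e-05). SNRPD2, another ring protein, went from 83.2 and 86.8 CPM to 703 and 248 CPM (log2 2.48, SE 0.37, adjusted p = 0.00019). SNRPG went from 31.7 and 29.9 CPM to 248 and 61.6 CPM (log2 2.32, SE 0.48, adjusted p = 0.0016). In these genes both s4U libraries lay above both untreated libraries, yet replicate 1 stood far above replicate 2. Without s4U replicate 1 the log2 fold changes were 2.13 for SNRPF, 1.54 for SNRPD2 and 1.00 for SNRPG, and without replicate 2 that of SNRPG was 3.01. All of these still passed, and the median over the 36 genes was 1.05 without replicate 1 and 1.52 without replicate 2.

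Outside the ring, the largest rises were those of SF3B4, SNRPC and SNRPB2. SF3B4, an RNA-binding subunit of SF3B, had 43.0 and 44.4 CPM in untreated cells and 181 and 219 CPM with s4U (log2 2.19, SE 0.18). SNRPC, the C protein of U1, which steadies U1 at the 5′ splice site, had 47.8 and 41.3 CPM against 248 and 131 CPM (log2 2.08, SE 0.25). SNRPB2, the U2B″ protein of the U2 particle, had 16.5 and 16.4 CPM against 93.5 and 45.8 CPM (log2 2.08, SE 0.29), and 1.48 without s4U replicate 1. In the U2AF factor, U2AF2 rose from 294 and 289 CPM to 931 and 810 CPM (log2 1.58, SE 0.15), and its replicates lay closer together. U2AF1, the small subunit that reads the AG of the 3′ splice site, rose from 147 and 146 CPM to 433 and 218 CPM (log2 1.15, SE 0.25), and by 0.57 without s4U replicate 1.

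More moderate rises were measured for SF3B1 (log2 0.90, SE 0.11), SNRPB (0.81, SE 0.16), PRPF31, which bridges U4/U6 and U5 in the tri-snRNP (0.62, SE 0.16, and 0.37 without s4U replicate 1), and SNRPA, the A protein of U1 (0.57, SE 0.13). PRPF6, another tri-snRNP bridging protein, was the only gene of the 36 that fell. It had 123 and 119 CPM in untreated cells and 76.6 and 78.6 CPM with s4U, a log2 fold change of -0.64 (SE 0.11, adjusted p = 0.00037). PRPF8 did not pass, and its replicates went separate ways: 598 and 603 CPM in untreated cells stood against 505 and 786 CPM with s4U. Its log2 fold change was 0.10 (SE 0.19), 0.39 without s4U replicate 1 and -0.25 without s4U replicate 2, each of which passed. SF3A2 and PRPF4 did not pass either, at log2 -0.04 (SE 0.14) and 0.29 (SE 0.18).

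**Figure D1:**
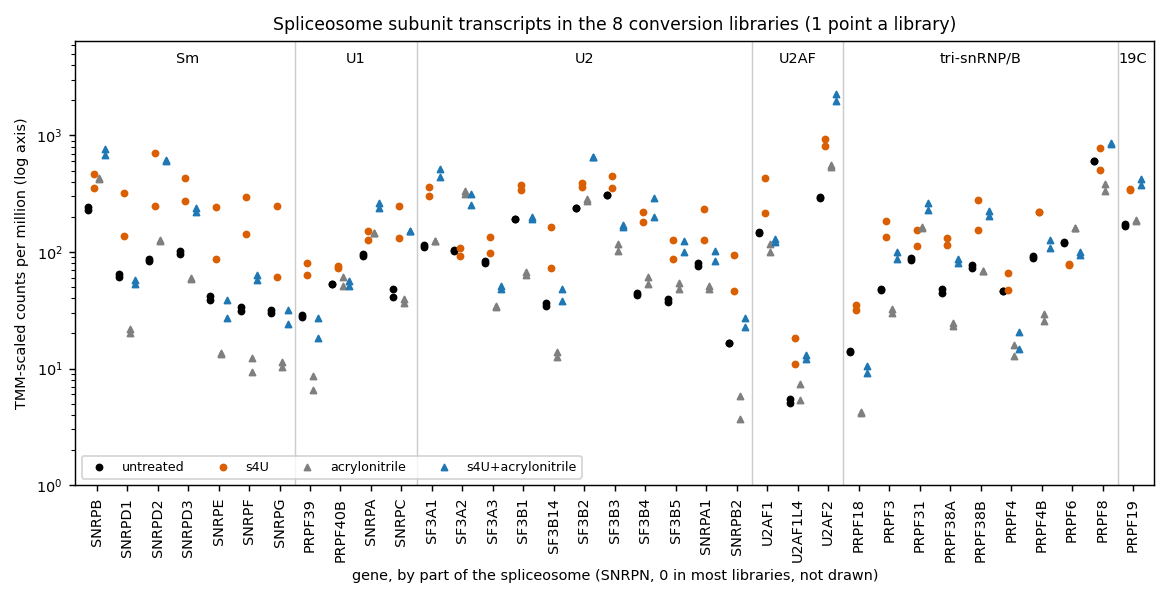
TMM-scaled counts-per-million (CPM) on a log axis for 35 spliceosome subunit genes in the 8 conversion libraries, 1 point per library, grouped by particle (19C is the PRP19 complex). The orange s4U points of the Sm genes lie above the black untreated points and are far apart from each other, whereas PRPF6 lies lower with s4U in both chemistries.

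The same question was put to the acrylonitrile-treated libraries, where s4U+acrylonitrile was compared with acrylonitrile. Here 30 of the 36 genes rose and 1 fell, beside 33.2% and 31.1% of all genes, and the median log2 fold change was 1.27. SNRPF again showed the largest rise, from 9.32 and 12.3 CPM to 62.9 and 57.1 CPM (log2 2.49, SE 0.34). SNRPB2 (2.35), SNRPD2 (2.29), PRPF4B, a kinase of the tri-snRNP (2.11), SF3B4 (2.09) and SNRPC (2.0) followed. In this pair of groups the replicates of SNRPD2 lay close together, and it went from 126 and 124 CPM to 612 and 609 CPM. PRPF6 was again the gene that fell, from 161 and 161 CPM to 99.3 and 93.4 CPM (log2 -0.74, SE 0.11, adjusted p = 0.00021). U2AF2 rose by 1.95 (SE 0.15), SF3B1 by 1.59 (SE 0.12), PRPF8 by 1.24 (SE 0.20), SNRPA by 0.80 (SE 0.13), SNRPB by 0.77 (SE 0.16) and PRPF31 by 0.61 (SE 0.16), all on the log2 scale. U2AF1 did not pass at 0.21 (SE 0.26), nor did SNRPG, PRPF4, PRPF40B and SF3A2.

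The s4U effects with and without acrylonitrile were compared by an interaction term in the same fit. None of the 36 genes passed (1.64% of all genes did), and 7 had an unadjusted p under 0.05. The lowest adjusted p-values were those of PRPF4B, at a difference of 0.82 (SE 0.18, adjusted p = 0.056), SF3B1, at 0.69 (adjusted p = 0.066), and PRPF8, at 1.14 (SE 0.27, adjusted p = 0.069), while U2AF1 stood at -0.94 (SE 0.36, adjusted p = 0.23). The s4U values that enter this term are those of the pair of replicates that differed. If the treatment labels hold, the term also mixes acrylonitrile with s4U dose.

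Acrylonitrile alone, compared with untreated RNA, shifted the measured levels in both directions. Of the 36 genes, 6 were higher and 19 lower (median log2 -0.63), where 29.1% of all genes were higher and 30.7% lower. SF3A2, the U2 subunit with the highest transcript GC content of the 36 (66.5%), was highest above the untreated level, with 103 and 103 CPM untreated and 315 and 337 CPM treated (log2 1.66, SE 0.15). U2AF2 (0.91), PRPF31 (0.89), SNRPB (0.87), SNRPA (0.61) and PRPF6 (0.41) were the other genes that were higher. PRPF39, with a GC content of 36.3%, was furthest below, from 27.5 and 28.7 CPM to 6.58 and 8.61 CPM (log2 -1.91, SE 0.24). SNRPB2 (-1.75), PRPF18 (-1.74), PRPF4B (-1.73), PRPF4 (-1.69) and SNRPF (-1.59) followed, with SF3B1 at -1.55 and PRPF8 at -0.74, while U2AF1 did not pass at -0.44 (SE 0.26). Spearman's rho between this log2 fold change and transcript GC content was 0.88 over the 36 genes and 0.71 over 18018 genes, which all share these libraries. With GC content as an offset in the fit, 1 member was higher and 9 were lower, beside 3251 and 2856 of 18018 genes. SF3A2 no longer passed at 0.11, and PRPF6, SNRPA and U2AF2 changed sign to -0.12, -0.01 and -0.01, none of which passed. PRPF31 and SNRPB did not pass either, at 0.17 and 0.20, whereas PRPF4 (-1.29), PRPF8 (-0.78) and SF3B1 (-0.65) stayed past the threshold. The call of PRPF6 was lost without either untreated replicate and that of PRPF8 without acrylonitrile replicate 2.

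The effect of acrylonitrile was also measured with s4U in the cells. s4U+acrylonitrile against s4U showed 8 of the 36 genes higher and 20 lower, beside 31% and 34.1% of all genes, with a median log2 fold change of -0.58. SF3A2 (1.5), U2AF2 (1.28), PRPF31 (0.88), SNRPA (0.85), SNRPB (0.83) and SF3B2 (0.80) were the most raised. SNRPG (-2.46), SNRPE (-2.33), SNRPD1 (-2.05), SNRPF (-1.86), PRPF18 (-1.75) and PRPF4 (-1.66) were the most lowered, together with U2AF1 (-1.37) and SF3B1 (-0.86), and PRPF8 did not pass at 0.40 (SE 0.19). The 4 Sm values rest in part on s4U replicate 1: without it those of SNRPG, SNRPE, SNRPD1 and SNRPF were -1.13, -1.39, -1.32 and -1.23, that of U2AF1 was -0.80, and without s4U replicate 2 PRPF8 passed at 0.75. With the GC offset 5 members were higher and 15 lower, beside 3449 and 4392 of 18018 genes. SF3A2, PRPF31 and SNRPB changed sign to -0.25, -0.03 and -0.02, without passing. SF3B1 (-0.01), SNRPA (0.06) and U2AF2 (0.19) lost their calls and U2AF1 (-1.56) and SNRPG (-1.49) did not. This comparison and the one above share no library, but each shares libraries with a comparison of s4U.

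The marked share after 24 h, the percent of a gene's fragments that carry a mismatch, was read in the s4U+acrylonitrile libraries. Whether it gives the share of transcripts replaced was not tested. The deposited tables do not name the mismatch type, which is taken here as T-to-C. The median over the 36 genes was 90.3%, against 91.7% (quartiles 85.8% and 94.4%) over 13786 genes with 20 fragments in each library. Background was 2.96% to 14.2% per gene in the pooled acrylonitrile libraries without s4U. PRPF18, a second-step splicing factor, was the most fully marked, at 97.5% and 100% of 81 and 54 fragments, the latter with a 95% Wilson interval from 93.4%. SF3B4 (97.8% ± 0.04, SD, n = 2), PRPF4B (97.1% ± 1.08) and PRPF4 (96.1% ± 0.96) came next.

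The 4 lowest marked shares were those of SNRPD2, PRPF8, SNRPE and SNRPC. SNRPD2 was marked in 51.2% and 52.7% of 4673 and 3622 fragments, the lowest of the 36. Its level was 126 and 124 CPM with acrylonitrile alone and 612 and 609 CPM in these libraries. Its marked share can therefore not be read as the share replaced. PRPF8 followed with 58.8% and 61.1% of 6572 and 4988 fragments, SNRPE with 63.1% and 70.0% of 293 and 160, and SNRPC with 74.3% and 72.1% of 1150 and 897. SNRPD2 and SNRPE belong to the Sm core, PRPF8 to the tri-snRNP and SNRPC to U1. The values of all 4 lay below the lower quartile of all genes in both libraries, and the means of U2AF2 and PRPF31 lay below it too. A lower quartile has a fixed part of all genes below it, so this limit does not set these members apart. Among the remaining genes that are always reported, U2AF2 stood at 79.9% ± 1.81, PRPF31 at 84.5% ± 1.11, SNRPB at 88.8% ± 0.02, SNRPA at 90.1% ± 0.52, U2AF1 at 91.3% ± 1.37 and SF3B1 at 93.4% ± 0.30 (SD, n = 2). The Sm genes had the lowest median of the groups of more than 1 gene (86.5%) and the U1 genes the highest (94.4%). Without acrylonitrile, s4U alone gave 12.4% and 9.67% marked fragments over the 37 genes, and untreated cells 7.17% and 7.09%.

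Half-lives were computed with the formula of the study from the labeled share after 1 h of s4U in the PDP0 libraries, with no background subtracted. The median half-life of the 36 genes was 5.01 h, with 28 of them above the median of 3.17 h (quartiles 2.04 h and 4.71 h) of 12811 protein-coding genes. In replicates 1 and 2 the medians over the members were 4.55 h and 4.85 h. SNRPD2 was the longest-lived, at 8.51 and 9.36 h, from labeled shares of 7.82% and 7.14%. PRPF8 (8.26 and 7.95 h), SF3B2, an SF3B subunit next to the branch point (8.24 and 7.82 h), and PRPF19, the ubiquitin ligase that names its complex (7.46 and 8.32 h), followed. Both SNRPD2 values lay above those of the other 3, whose ranges overlapped with each other.

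At the other end, PRPF40B, a U1-associated protein thought to bridge the 5′ and 3′ ends of an intron, had a half-life of 1.23 h in each replicate, from 43.1% and 43.2% labeled fragments. Its gene overlaps RNU6-834P, POLR2KP1, RP11-133N21.7 and HIGD1AP9 on the same strand, so the source of these fragments is uncertain. SNRPE had 1.37 and 1.28 h, PRPF38B 2.22 and 2.43 h, and PRPF39 2.06 and 3.02 h from only 42 and 39 fragments. The other genes that are always reported lay between: U2AF1 at 3.50 ± 0.03 h, SNRPA at 3.72 ± 0.37 h, U2AF2 at 5.40 ± 0.06 h, PRPF31 at 5.46 ± 0.61 h, SF3B1 at 6.46 ± 0.45 h and SNRPB at 6.66 ± 0.42 h (SD, n = 2). The U2AF and U1 groups had the shortest medians (3.50 h and 3.72 h) and the U2 and Sm groups the longest of the groups of more than 1 gene (5.34 h and 5.67 h). In SNRPF the replicates gave 3.44 and 7.90 h and in SNRPB2 7.04 and 3.65 h, both genes with few fragments.

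The labeled share of many members was close to the background. In 34 of the 36 genes it exceeded the gene's own share of mismatch fragments in the acrylonitrile libraries without s4U, and in SF3B2 (8.27% against 8.90%) and SNRPF (13.3% against 13.9%) it did not. With each gene's own background subtracted, the median half-life of the 34 genes was 13.1 h, against 5.23 h over all protein-coding genes treated alike, and PRPF40B and SNRPE were again the shortest at 1.51 h and 1.55 h. The length of the long half-lives thus depends on the background, and those of PRPF40B and SNRPE little.

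Half-life and 24 h marked share ran in opposite directions, with a Spearman's rho of -0.61 over the 36 genes and -0.48 over 11672 protein-coding genes. The points share their gene's base composition, and rho between half-life and the T content of the transcript was -0.31 over the 36. SNRPD2 and PRPF8 had long computed half-lives and low marked shares. SNRPE was among the most labeled after 1 h, with 40.8% of fragments, and among the least marked after 24 h, with 66.6%. Its short computed half-life and its low marked share conflict, and the cause was not tested. PRPF40B, with 43.2% after 1 h and 95.7% after 24 h, was high in both.

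**Figure D2:**
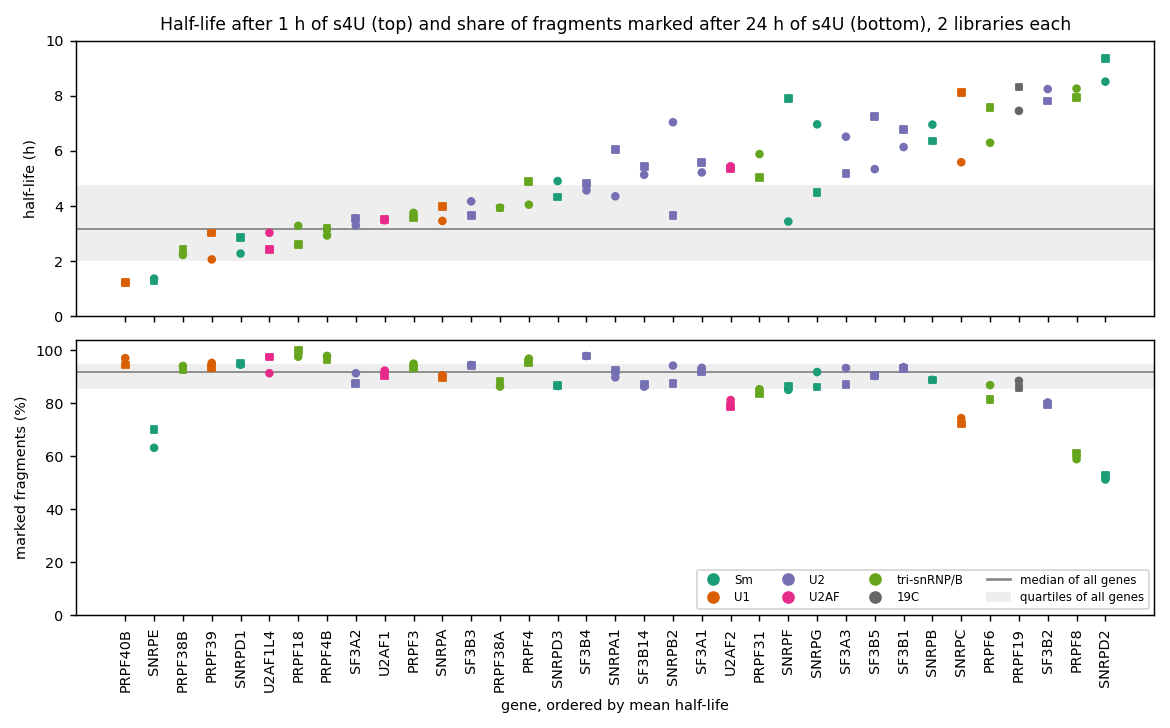
Half-life in hours from the 2 PDP0 libraries (top) and percent of fragments marked after 24 h of s4U with acrylonitrile in 2 libraries (bottom), for 35 genes ordered by mean half-life and coloured by particle; circles are replicate 1, squares replicate 2, the line and band the median and quartiles of all genes. Half-lives run from 1.23 h for PRPF40B to 8.94 h for SNRPD2, and SNRPE, SNRPC, PRPF8 and SNRPD2 lie low in the marked share.

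The PDP libraries were compared next, to ask how the transcripts respond to a G-quadruplex ligand. With the scaling of the study, by all fragments of a library, the total level of most members was higher after PDP. At 4 µM 30 of the 36 genes rose and 0 fell, beside 51.4% and 6.99% of 15473 genes. At 8 µM 24 rose and 2 fell, beside 51.8% and 8.71%. The median log2 fold changes were 0.58 and 0.45, but the median over all genes was itself 0.32 and 0.33, and 82.6% to 83.0% of fragments lay in genes in PDP0 against 86.5% to 89.7% with PDP. With TMM scaling, which sets the middle of all genes near 0, 19 members rose and 8 fell at 4 µM, beside 3902 and 4049 of 15473 genes. At 8 µM 18 rose and 10 fell with TMM, beside 4143 and 4178 of all genes. The comparisons at 4 and 8 µM share the PDP0 libraries.

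PRPF39 rose most, from 4.30 and 3.69 FPM to 9.42 and 8.69 FPM at 4 µM (log2 1.18, SE 0.18) and 10.3 and 10.9 FPM at 8 µM (log2 1.41, SE 0.17). At 4 µM SNRPB2 (1.11), SNRPG (1.07), SNRPF (1.06), PRPF4B (1.02) and SNRPD1 (1.00) followed, and at 8 µM PRPF4B (0.97), SNRPF (0.94), SNRPB2 (0.93), SNRPD1 (0.92) and PRPF18 (0.88). In these genes all PDP libraries lay above both PDP0 libraries. SF3B1 rose from 75.7 and 79.9 FPM to 140 and 126 FPM at 4 µM (log2 0.77, SE 0.06) and 128 and 133 FPM at 8 µM (0.75, SE 0.07). PRPF8 rose from 547 and 554 FPM to 796 and 736 FPM and to 757 and 740 FPM (0.48 and 0.44, SE 0.04 each). With the GC offset SF3B1 was at 0.17 and 0.11 and PRPF8 at 0.12 and 0.09, and both passed at 4 µM but not at 8 µM (adjusted p = 0.14 and 0.066 by edgeR's quasi-likelihood test).

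U2AF2 and SF3A2 were the 2 genes that fell at 8 µM. U2AF2 had 718 and 711 FPM without PDP, 673 and 690 FPM at 4 µM and 668 and 628 FPM at 8 µM, a log2 fold change of -0.14 (SE 0.04, adjusted p = 0.0053) at 8 µM and -0.07 at 4 µM. Its call at 8 µM was lost without PDP0 replicate 1 (-0.13) or PDP0 replicate 2 (-0.15), at adjusted p = 0.089 and 0.059. SF3A2 had 381 and 386 FPM, 361 and 369 FPM, and 364 and 332 FPM (log2 -0.14, SE 0.05, adjusted p = 0.013 at 8 µM), and lost its call with the GC offset and without PDP8 replicate 2 or either PDP0 replicate. SNRPB (-0.10), PRPF31 (-0.05), SNRPA (0.02) and U2AF1 (0.06) did not pass at 8 µM, and with TMM all 4 were lower (-0.40, -0.35, -0.28 and -0.24), which turned the sign of SNRPA and U2AF1. At 4 µM U2AF1 passed at 0.21 but not with TMM, at -0.10, nor without either PDP4 replicate or PDP0 replicate 2. At 8 µM U2AF1 passed at 0.18 without PDP8 replicate 2, and PRPF31 (-0.15) and SNRPB (-0.12) passed without PDP8 replicate 1.

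These differences moved with base composition. Spearman's rho between log2 fold change and transcript GC content was -0.84 at 4 µM and -0.83 at 8 µM over the 36 genes, and -0.55 and -0.58 over 14915 genes. With GC content as an offset, an alternative chosen after the data had been seen, 13 members rose and 5 fell at 4 µM, beside 2030 and 3524 of 14915 genes. At 8 µM 8 rose and 13 fell with this offset, beside 2081 and 3815 of all genes. Under all-fragment scaling, TMM and the GC offset alike, 13 genes rose at 4 µM, and 8 genes rose at 8 µM: PRPF39, PRPF4, PRPF40B, PRPF4B, SF3A3, SF3B3, SNRPD1 and SNRPF. U2AF2 alone was lower at 8 µM in all 3. How many of all genes passed in all 3 was not counted, so these numbers stand without a background. Between 8 and 4 µM 0 of the 36 genes passed with edgeR and 0 with DESeq2 (0.233% of all genes were higher and 0.0905% lower with edgeR), and 5 had an unadjusted p under 0.05. Without PDP8 replicate 1, the median log2 fold change of 8 against 4 µM was -0.11 over the 36 genes and -0.02 over all genes. With all libraries these medians were -0.07 and -0.01.

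**Figure D3:**
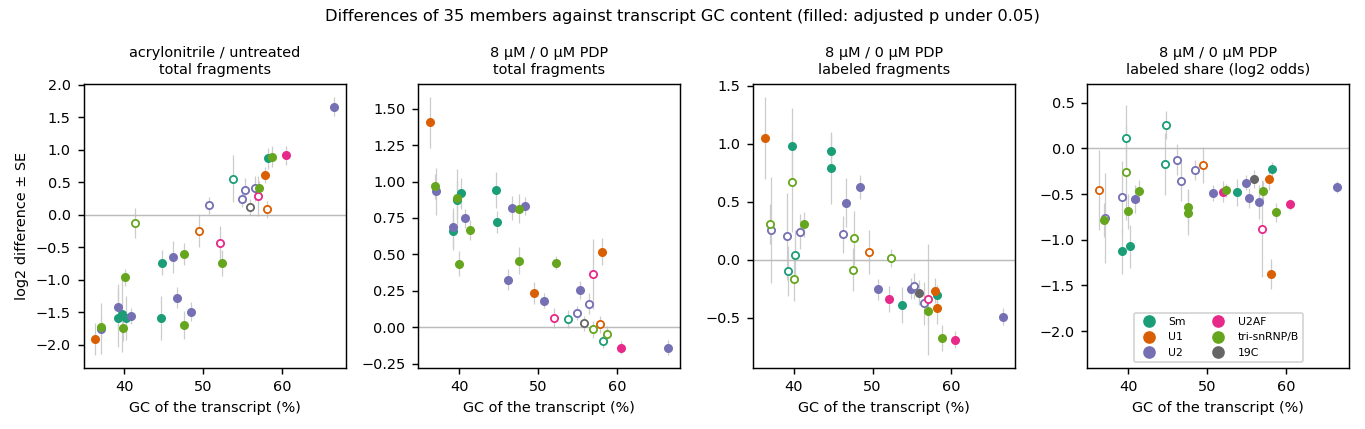
Log2 differences with standard errors against the GC percent of the transcript for 35 genes in 4 comparisons, coloured by particle, filled where the adjusted p was under 0.05. The acrylonitrile difference rises with GC content, the PDP differences in total and labeled fragments fall with it, and the labeled share at 8 µM shows no such slope.

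Labeled fragments were then compared between doses as the measure of newly made RNA. They include background mismatches. Over the 37 genes 12.4% and 12.1% of fragments were labeled without PDP and 9.21% and 9.54% at 8 µM, beside 7.92% and 8.78% in the acrylonitrile libraries of the conversion experiment that had no s4U. The part of this background in the results was not tested. At 4 µM 6 of the 36 genes rose and 4 fell, beside 9.24% and 19.8% of 14236 genes. At 8 µM 7 rose and 12 fell, beside 10.4% and 27.3%. The median log2 fold change of the members was 0.15 and -0.03, and that of all genes -0.03 and -0.11. With TMM 7 rose and 3 fell at 4 µM, beside 1627 and 2435 of 14236 genes, and 9 rose and 4 fell at 8 µM, beside 2434 and 2846. With the GC offset 2 rose and 1 fell at 4 µM, beside 712 and 1897 of 13795 genes, and 2 rose and 4 fell at 8 µM, beside 1070 and 2527. Spearman's rho with GC content was -0.82 and -0.81 over the 36 genes and -0.48 and -0.52 over 13795 genes.

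U2AF2 had the clearest loss of labeled fragments. It had 85.9 and 86.2 labeled FPM without PDP, 66 and 66.3 FPM at 4 µM, and 54.3 and 52.5 FPM at 8 µM. The 3 doses did not overlap and stepped down with dose, by log2 -0.38 (SE 0.07, adjusted p = 1.3e-06) at 4 µM and -0.69 (SE 0.07, adjusted p = 3.5e-18) at 8 µM. It was also the 1 member that passed between 8 and 4 µM, at -0.31 (SE 0.07, adjusted p = 0.00089), where 0.738% of all genes were higher and 4.87% lower. That step no longer passed with TMM (-0.21) or the GC offset (-0.16), and with the GC offset the fall was -0.09 at 4 µM, without passing, and -0.25 at 8 µM, which passed. U2AF2 overlaps CTD-2537I9.13 on the same strand, so the source of these fragments is uncertain.

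PRPF31 showed a fall of like size. It had 21.5 and 24.2 labeled FPM without PDP, 17.7 and 15.3 FPM at 4 µM, and 14.8 and 13.9 FPM at 8 µM (log2 -0.47, SE 0.11, and -0.67, SE 0.11). With the GC offset its values were -0.26 at 4 µM, which did not pass, and -0.32 at 8 µM, which passed. U2AF2 and PRPF31 were the members that fell at 8 µM under all-fragment scaling, TMM and the GC offset alike. How many of all genes did so was not counted. SF3A2 went from 72.4 and 68.7 FPM to 55.7 and 56.4 FPM and to 50.7 and 49.5 FPM (log2 -0.33 and -0.49), but was at 0.15 at both doses with the GC offset, without passing. U2AF1 fell by 0.29 and 0.34 on the log2 scale. With TMM its values were -0.24 and -0.19 and did not pass, and with the GC offset -0.32 and -0.29, which passed. At 8 µM PRPF6 (-0.44), PRPF40B (-0.41), SNRPD2 (-0.39), SNRPB (-0.30), PRPF19 (-0.28), SNRPA (-0.26), SF3A1 (-0.26) and SF3B2 (-0.25) fell as well. PRPF6, PRPF40B, SNRPD2, SNRPB, SNRPA, PRPF19 and SF3B2 did not pass under the GC offset, where SNRPA and SNRPB were at 0.04 and 0.02 and PRPF19 and SF3B2 at -0.08 and -0.09. SF3A1 passed with the GC offset (-0.26) and not with TMM (-0.11).

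SNRPD3 and SF3B3 moved the other way. SNRPD3, an Sm ring protein, rose from 6.96 and 7.0 labeled FPM to 11.4 and 11.3 FPM at 4 µM and 13.7 and 13.1 FPM at 8 µM (log2 0.70, SE 0.15, and 0.94, SE 0.15). Its gene overlaps GGT1 on the same strand, so the source of these fragments is uncertain. SF3B3, the large scaffold subunit of SF3B, rose from 14.5 and 18.4 FPM to 28.0 and 25.8 FPM and to 25.5 and 25.5 FPM (0.70, SE 0.10, and 0.63, SE 0.11). These 2 genes rose at both doses under all 3 scalings, and the number of all genes that did so was not counted. PRPF39 (1.07 and 1.05) and PRPF38B (0.46 and 0.31) rose at both doses, PRPF4B (0.55) and SF3B1 (0.47) at 4 µM only, and SNRPG (0.98), SNRPF (0.79) and SF3A3 (0.49) at 8 µM only, each without passing under the GC offset. The difference between doses was tested, and none of these passed between 8 and 4 µM. Several calls rested on single libraries. At 8 µM the calls of SNRPA and SNRPD2 were lost without any 1 of the 4 libraries, that of SF3A3 without PDP8 replicate 2 or either PDP0 replicate, and those of PRPF40B and SNRPG without PDP8 replicate 2 or PDP0 replicate 1. PRPF39 lost its call without PDP8 replicate 2 or PDP0 replicate 2, SNRPF without PDP8 replicate 1 or PDP0 replicate 2 (0.35), PRPF6 and U2AF1 without PDP0 replicate 1, and SNRPB without PDP0 replicate 2. At 4 µM PRPF39 and PRPF4B lost theirs without PDP4 replicate 1 or PDP0 replicate 2, and SF3B1 and U2AF1 without PDP4 replicate 1 or either PDP0 replicate. PRPF8 did not pass at either dose, at 0.13 and 0.02 (SE 0.08 each).

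Of the 4 genes with the G-quadruplex pattern printed above, U2AF2, U2AF1 and PRPF40B fell in labeled fragments at 8 µM and SNRPD3 rose. Their median log2 fold change was -0.37, against -0.10 for the 27 tested genes whose promoter was matched and lacked the pattern. PRPF31 and SF3A2, which fell with them, had no such pattern in this window. U2AF2 and PRPF40B have a GC content of 60.5% and 58.1%, U2AF1 one of 52.1% and SNRPD3 one of 44.8%. With 4 genes no test was made.

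The labeled share of a gene's own fragments compares labeled with unlabeled fragments within a library and needs no scaling between libraries. Over the 37 genes it was 12.4% and 12.1% without PDP, 10.0% and 9.93% at 4 µM, and 9.21% and 9.54% at 8 µM, and over all genes 17.2% and 17.2%, 13.8% and 13.5%, and 12.5% and 13.2%. By a test of labeled against unlabeled counts, 0 of the 36 genes rose and 18 fell at 4 µM, beside 0.262% and 45.9% of 14124 genes. At 8 µM 0 rose and 24 fell, beside 0.637% and 54%. The median log2 change of the odds was -0.35 and -0.48 in the members and -0.48 and -0.58 in all genes. Spearman's rho with GC content was 0.09 and 0.05. The labeled share still includes background mismatches. At 8 µM SF3B2, which fell, had 6.47% and 6.55%, under its 8.90% in the acrylonitrile libraries without s4U. PRPF8, which also fell, had 6.11% and 6.09% against 6.25%, and PRPF40B stayed above, at 22.8% and 22.4% against 6.41%. A fall to such a background cannot be read as a loss of newly made RNA. How many falls ended there was not counted, and the part of background was not tested.

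PRPF40B lost the most. It was labeled in 43.1% and 43.2% of fragments without PDP, 26.2% and 20.8% at 4 µM, and 22.8% and 22.4% at 8 µM, a log2 change of the odds of -1.31 (SE 0.16) and -1.38 (SE 0.16, adjusted p = 4.2e-13). SNRPE had the next shortest computed half-life but a low 24 h marked share. Its labeled share was 39.8% and 41.8%, 30.0% and 25.7%, and 23.5% and 24.9% (-0.83, SE 0.25, and -1.12, SE 0.25). SNRPD1, an Sm ring protein, had 26.3% and 21.6%, 11.7% and 15.3%, and 11.6% and 14.8% (-1.03, SE 0.23, and -1.07, SE 0.24). In these 3 genes both doses lay below PDP0 without overlap, as they did in 27 and 29 of the 36 members and in 70.5% and 73.8% of 14124 genes at 4 and 8 µM. PRPF40B overlaps several genes on its strand and SNRPD1 overlaps RP11-13N13.2, so the source of their fragments is uncertain. SF3A3 (-0.68), PRPF31 (-0.61) and U2AF1 (-0.60) completed the 6 largest falls at 4 µM, and PRPF4B (-0.79), PRPF4 (-0.70) and PRPF31 (-0.70) those at 8 µM. SF3A3 and SNRPE lost their calls at 4 µM without PDP0 replicate 2, and PRPF4 lost its call at 8 µM without PDP8 replicate 2 or PDP0 replicate 1.

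U2AF2 had 12% and 12.1% labeled without PDP, 9.81% and 9.61% at 4 µM, and 8.13% and 8.35% at 8 µM, and its odds fell by 0.35 and 0.61 on the log2 scale (SE 0.06 each). PRPF8 fell by 0.38 and 0.46 (SE 0.07 each), from 8.05% and 8.35% to 6.11% and 6.09% at 8 µM. SF3B1 did not pass at 4 µM (-0.34, SE 0.15) and fell by 0.55 at 8 µM, and SNRPB (-0.23, SE 0.08) and SNRPA (-0.34, SE 0.11) fell at 8 µM but did not pass at 4 µM. SNRPA lost this call without PDP8 replicate 1 or PDP0 replicate 1, and SNRPB without PDP8 replicate 2 or PDP0 replicate 2. The difference in share between the doses was not tested. Tri-snRNP and B complex genes fell in 6 of 9 cases at 4 µM and 8 of 9 at 8 µM, and Sm genes in 3 and 4 of 7, beside 45.9% and 54% of all genes. The groups were not tested against each other. SNRPD3 did not pass, at 13.2% and 14.8% without PDP and 16% and 16.6% at 8 µM (log2 0.26, SE 0.16).

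**Figure D4:**
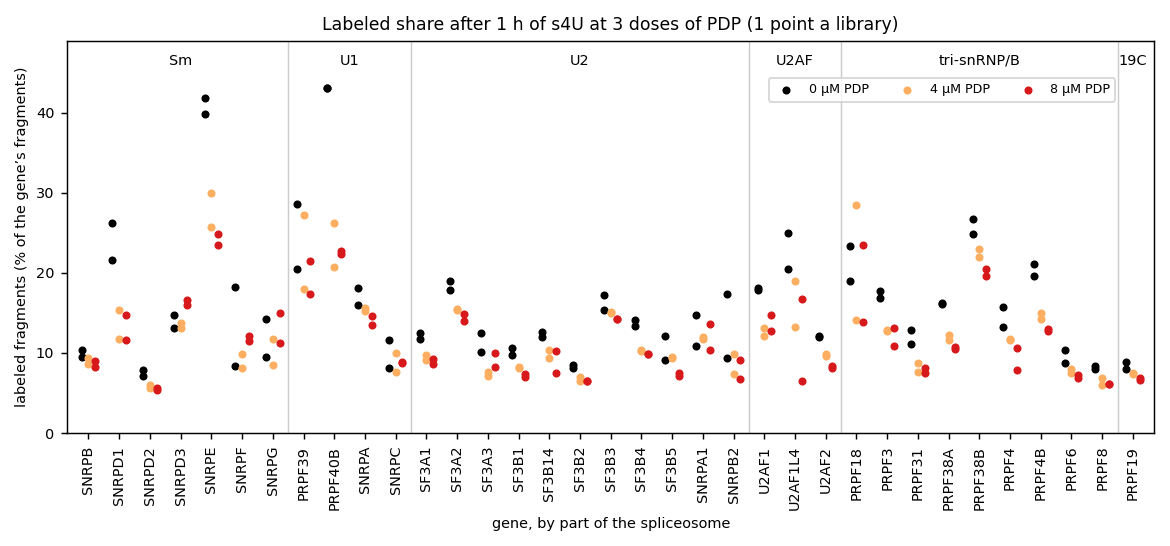
Labeled fragments as a percent of each gene's fragments after 1 h of s4U at 0, 4 and 8 µM PDP, 1 point per library, for 35 genes grouped by particle. PRPF40B, SNRPE and SNRPD1 drop furthest, from 43.1% and 43.2% to 22.8% and 22.4% in PRPF40B at 8 µM, and SNRPD3 lies above its starting share at 8 µM.

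Signal past the 3′ end was examined in the windows downstream of genes, 4000 bp long by the methods of the study. Only 8 members reached the minimum of 0.5 FPM there. At 4 µM 0 rose and 3 fell, beside 6.86% and 18.2% of 2173 windows, and at 8 µM 1 rose and 3 fell, beside 11.5% and 24.3%. With TMM 1 rose and 2 fell at 4 µM, and 2 rose and 1 fell at 8 µM. The shares of all windows with TMM are not given here, so these numbers stand without a background. The SF3A2 window had 18.2 and 17.6 FPM without PDP, 8.38 and 9.32 FPM at 4 µM, and 6.98 and 5.99 FPM at 8 µM (log2 -1.02, SE 0.13, and -1.46, SE 0.14, adjusted p = 1.2e-18). AMH and MIR4321 lie in that window on the same strand, so its fragments cannot be assigned to SF3A2 alone. The U2AF2 window, which EPN1 shares, fell from 15 and 24 fragments (1.54 and 2.27 FPM) to 26 and 17 fragments in deeper libraries (1.16 and 0.925 FPM) at 8 µM (log2 -0.86, SE 0.35), and by 0.98 at 4 µM. The SF3B2 window, which PACS1 shares, fell from 4.91 and 3.41 FPM to 1.89 and 2.73 FPM and to 2.24 and 2.83 FPM (log2 -0.84, SE 0.23, and -0.72, SE 0.23).

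PRPF8 was the 1 member whose window rose, at 8 µM, from 3 and 5 fragments (0.307 and 0.473 FPM) to 21 and 19 fragments (0.939 and 1.03 FPM; log2 1.31, SE 0.54, adjusted p = 0.044), and RILP lies within it. With DESeq2 only the SF3A2 window passed at either dose. The PRPF8 call was lost without any 1 of the 4 libraries (log2 1.04 to 1.66). At 8 µM the U2AF2 call was lost without PDP0 replicate 2 (-0.54), PDP8 replicate 1 (-1.04) or PDP8 replicate 2 (-0.72), and the SF3B2 call without PDP0 replicate 1 (-0.44) or PDP8 replicate 1 (-0.55). At 4 µM that of U2AF2 was lost without PDP0 replicate 2 (-0.66) or PDP4 replicate 1 (-0.83), and that of SF3B2 without PDP0 replicate 1 (-0.56) or PDP4 replicate 1 (-0.60). Windows upstream of the start were added after the data had been seen. Of 8 members tested, only SF3A2 fell, from 7.88 and 8.42 FPM to 3.79 and 3.85 FPM and to 3.89 and 2.99 FPM (log2 -1.09, SE 0.18, and -1.23, SE 0.19), where 22.9% and 28.5% of 3715 windows fell and 3.66% and 6.97% rose.

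Other genes of the spliceosome and of small nuclear ribonucleoprotein assembly were counted in the same way. Of 61 further spliceosome genes, 51 rose and 1 fell with s4U (median log2 0.99), and of 17 assembly genes 12 rose and 1 fell (0.77), beside 35.8% and 34.7% of all genes. In acrylonitrile-treated RNA the counts were 48 and 0, and 10 and 1, beside 33.2% and 31.1%. In total fragments at 8 µM PDP, 45 of 61 spliceosome genes rose and 5 fell, with the extremes at PLRG1 (1.25) and SNRNP70 (-0.60), and 12 of 17 assembly genes rose and 0 fell, led by PHAX (0.83), beside 51.8% and 8.71% of all genes. In labeled fragments at 8 µM 8 of 60 rose and 17 fell, from SLU7 (1.09) to SNRNP70 (-1.22), which encodes a protein of the U1 particle. Of the 17 assembly genes 1 rose, COIL (0.54), and 2 fell, of which GEMIN7 (-0.60) fell more. For the spliceosome list these are 13.3% and 28.3%, beside 10.4% and 27.3% of all genes, so the shares were near the background. Their labeled share fell in 32 of 60 (53.3%) and 8 of 17 (47.1%), beside 54% of all genes, furthest in LSM3 (-1.48) and GEMIN7 (-0.92).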

How the data were processed

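The authors used cutadapt for trimming and HISAT2 for mapping to GRCh37 (versions 1.18 and 2.1.0 by the submitters' processing notes). Identical reads had been collapsed, ribosomal reads taken out by bowtie2, and only unique proper pairs used, with mismatches at polymorphisms or of low base quality left out. The sources used here do not name the tool that counted fragments per GENCODE v19 gene. The deposited tables hold counts of fragments by number of mismatches (conversion experiment) and counts of total, labeled, downstream and upstream fragments (PDP experiment), with FPM, which the authors scaled, as RPM, to all fragments of a library. The deposited half-lives, in min, were recomputed from the deposited counts with 60 min of labeling.

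The conversion experiment was tested with edgeR 4.0.16 (R 4.3.3) on counts, with TMM, filterByExpr and all 4 groups in 1 fit. For the PDP experiment limma on log2(FPM + 0.1) had been planned for a table without counts. Since counts were deposited, edgeR with the authors' library sizes was used, all doses in 1 fit, and genes needed a mean of 1 total FPM, 0.5 labeled FPM, or 0.5 FPM in a window. The labeled share was tested as labeled against unlabeled counts with a term per library. The threshold was an adjusted p (Benjamini-Hochberg, over all genes tested) under 0.05. The members, groups and lists were chosen with earlier results of these data known. Always named were SF3B1, PRPF8, U2AF1, U2AF2, SNRPB, SNRPN, SNRPA and PRPF31, and, per comparison, the 6 largest rises and 6 largest falls among those that passed, the 4 lowest and 4 highest marked shares and half-lives, and every member passing in the downstream windows.

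The figures draw 35 genes, since 1 member enters the counts but not reported here by name. Transcript length, GC and T content came from the canonical transcripts of GENCODE v44lift37, and promoters from RefSeq (GRCh38.p14). Correlations across genes are descriptions, since genes are not independent replicates. Replicate numbers did not pair samples: deviations of same-numbered libraries correlated between -0.02 and 0.05. Alternatives were DESeq2 1.42.0, its size factors, TMM for the PDP tables, limma 3.58.1 with pseudocounts of 0.1 and 1, no filter, a GC offset (spline with 6 degrees of freedom, for the PDP tables added after the data were seen), a replicate block, the compared groups alone and each library left out. Tests were checked on simulated counts: of planted 2-fold changes, 74% were recovered for s4U against untreated (17942 genes), 75.8% for total and 45% for labeled fragments at 8 µM (15404 and 14063 genes), 39% for downstream windows (2074) and 81% for the labeled share (14124), and of 1.5-fold changes 16%, 10%, 8% and 13% for the first 4. The simulated counts had the same fixed spread in every group, or counting error only for the labeled share. The real replicates differed unequally, with a chi-square per degree of freedom of 59.8 for s4U and 1.06 for untreated. The recovered percentages therefore do not give the power of these tests on the real libraries. Intervals and limits from counts cover counting error only. Tables and figures were made in Python 3.11.15 (Matplotlib 3.10.9, pandas 2.3.3, SciPy 1.17.1, NumPy 2.4.6).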

Additional observations from a re-analysis of the deposited data

Results flagged for a closer look

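U2AF2 was singled out because its labeled fragments differed between the PDP doses: the log2 fold change of 8 against 4 µM was -0.31, the 1 member that passed this test of the difference itself. The 2 libraries at 8 µM (54.3 and 52.5 labeled FPM) lay below both at 4 µM (66 and 66.3 labeled FPM), and total fragments of U2AF2 did not pass in the same comparison. The step did not pass with TMM or the GC offset, and U2AF2 overlaps CTD-2537I9.13 on the same strand.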

How the results depend on the processing

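Values are log2 fold changes or numbers of members that passed. Of the alternatives to counts and medians, 133 lay close to the reported value and 24 did not, and of those to single genes 1333 were on the same side of the threshold in the same direction, 131 no longer passed, 25 newly passed and 34 turned direction. With the GC offset 10 members passed for acrylonitrile against untreated, 18 for total fragments at 4 µM, 3 and 6 for labeled fragments at 4 and 8 µM, and 0 between the doses, as with TMM (0). It turned PRPF6 (-0.12), SNRPA (-0.00991) and U2AF2 (-0.00966) for acrylonitrile against untreated, PRPF31 (-0.025), SF3A2 (-0.25) and SNRPB (-0.017) for s4U+acrylonitrile against s4U, U2AF1 (-0.000786) for s4U+acrylonitrile against acrylonitrile, PRPF31 (-0.071), SNRPA (-0.064) and U2AF1 (-0.15) in total fragments at 4 µM, SNRPA (-0.14) and U2AF1 (-0.30) at 8 µM, and in labeled fragments SF3A2 (0.15), SNRPA (0.15) and SNRPB (0.00801) at 4 µM and SF3A2 (0.15), SNRPA (0.041) and SNRPB (0.023) at 8 µM. TMM turned PRPF31 (-0.23), SNRPA (-0.19) and U2AF1 (-0.10) in total fragments at 4 µM, SNRPA (-0.28) and U2AF1 (-0.24) at 8 µM, and SNRPA (0.029) in labeled fragments at 4 µM. With DESeq2, 6 members passed for labeled fragments at 4 µM, beside 407 genes higher and 1824 lower of 14236. At 8 µM 7 passed, beside 531 and 2665. With DESeq2 1 downstream window passed at each dose, and without a filter 2 windows passed at 8 µM. The shares of all windows in these settings are not given here. The cause of these changes was not tested. Leaving out 1 library gave 0 to 9 members between the doses in total fragments, 6 to 11 and 8 to 16 in labeled fragments, 1 to 3 windows at each dose, and a median half-life of 4.55 to 4.85 h. It spread PRPF8 from -0.25 to 0.39 (s4U against untreated), SNRPB from -0.089 to 0.000928 (total, 4 µM), PRPF31 from -0.15 to 0.049, SNRPA from -0.028 to 0.063 and U2AF1 from -0.081 to 0.18 (total, 8 µM), SNRPA from -0.0745 to 0.024 (labeled, 4 µM) and PRPF8 from -0.019 to 0.054 (labeled, 8 µM). The median marked share was 78.6% with at least 2 mismatches and 82.0% with the acrylonitrile-only share subtracted, and the median half-life 13.1 h after that subtraction. Replicate numbers did not pair the libraries. With a replicate block 32 members passed for s4U against untreated, beside 6780 genes higher and 6623 lower of 18914. In total fragments 29 and 26 passed at 4 and 8 µM, beside 7976 and 1074, and 8040 and 1354, of 15473 genes. In labeled fragments 10 and 19 passed, beside 1281 and 2782, and 1447 and 3847, of 14236 genes. With the block the U2AF2 downstream window no longer passed at 8 µM (-0.84, adjusted p = 0.055 by edgeR). Depth limits the low genes most: PRPF39 had 42 and 39 fragments in the PDP0 libraries.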
